A study of Homo sapiens with 9 samples.

Results

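RNA levels on the first array of each of 3 T47D lines were compared with those on the later arrays of the same line. The 3 first arrays are replicate 1 of T47D-VC1, T47D-PA5 and T47D-PA6, and the 6 later arrays are replicates 2 and 3 of each, so that all 9 arrays of the series entered, each taken from its title. T47D is an established human breast cancer cell line of luminal type that carries estrogen and progesterone receptors. The series asked how PTH-AS, a long noncoding RNA encoded beside the parathyroid hormone gene, acts on gene expression in these cells. T47D-VC1 carries the empty pTARGET expression vector, T47D-PA5 an incomplete PTH-AS and T47D-PA6 the full-length PTH-AS. All were stable lines under the same culture, Dulbecco's medium with fetal bovine serum at 21% oxygen and 5% carbon dioxide. Cells were selected with G418, and the study used a single selected line for each construct, so a line's name stands for 1 line only. Array order had no meaning in the labels beyond the replicate number, which does not say whether the replicates were separate cultures. P-values here therefore measure the spread between these arrays, which may be technical.

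Cells answer many changes of their surroundings with shared sets of genes. When oxygen falls, or when dense cells consume it, the hypoxia-inducible factors are no longer hydroxylated and degraded, and they switch on genes of glucose uptake, glycolysis, mitophagy and blood vessel growth. Interferons act through cell surface receptors on antiviral genes, and dividing cells raise histone genes during DNA synthesis and mitotic genes just before division. Such programs are known to follow the density, feeding and age of a culture of epithelial cancer cells.

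The first arrays were all on 1 slide and in 1 scan day, and the later arrays were on 2 other slides scanned on another day. Replicate 2 of T47D-VC1 and T47D-PA5 lay on slide 2, and replicate 3 of both with replicates 2 and 3 of T47D-PA6 on slide 3. First against later thus cannot be told apart from slide 1 against slides 2 and 3. The background around the spots was 25.5 to 27.9 units on the first arrays and 12.1 to 13.9 on the later ones, and the median spike-in signal was 168, 211 and 352 against 100 to 129. From 44.0% to 48.0% of probes per array were marked well above background, with saturation at 0 spots. The number of arrays limits the precision. Signals below are the authors' quantile-normalized intensities in arbitrary units, and differences are first minus later on the log2 scale, averaged over the 3 lines.

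T47D-PA6 replicate 1 stood apart in 1 respect. On it, 1362 of 60901 spots (2.24%) were more than 2 on the log2 scale above the median of the other 8 arrays, against 201 to 492 spots (0.330% to 0.808%) on each of the other arrays. Of these raised spots, 64.8% had a raised spot beside them, and together they marked an area of 8918 spots, 14.6% of the array. Of the 20107 genes tested, 15.69% had a spot in that area. Counts for the hypoxia, mitosis, histone and snoRNA lists and for the differences between lines are therefore also given without the probes of the area. This removal also took out the probes of such areas on any other array. Probes of raised spots with 2 or more raised spots beside them on any array were removed with them.

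**Figure D1:**
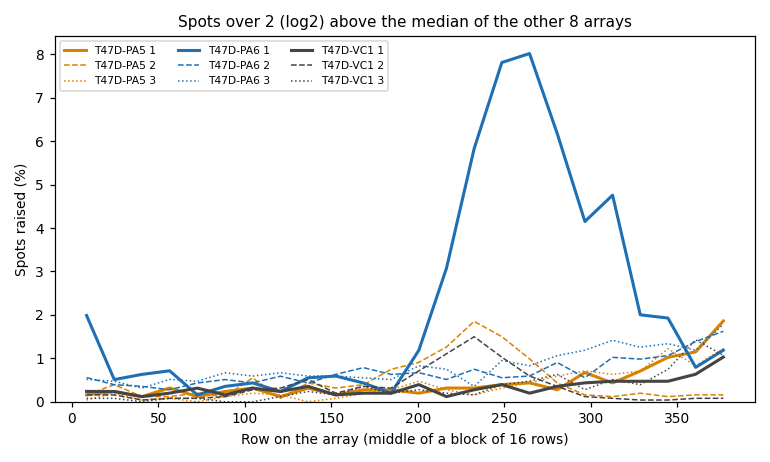
Percentage of spots over 2 (log2) above the median of the other 8 arrays, by row of the array in blocks of 16 rows, for each of the 9 arrays. Solid lines are the first arrays, dashed lines replicate 2 and dotted lines replicate 3, and T47D-PA6 replicate 1 reaches 8.02%, while the other first arrays reach at most 1.86%.

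The RNA was that of luminal breast epithelium on first and later arrays alike. KRT18, KRT19, EPCAM, CDH1, ESR1, PGR, GATA3 and FOXA1 passed the background mark on all 9 arrays, and of the 19 luminal genes tested only TFAP2A, a transcription factor of this lineage, passed the test. TFAP2A had a signal of 422 against 537 and 559 in T47D-VC1, 379 against 449 and 513 in T47D-PA5, and 447 against 689 and 634 in T47D-PA6, and it fell by 0.43 (SE 0.0795, adjusted p = 0.0187). Of 12 fibroblast markers 2 were tested, of 13 immune markers 6, of 7 endothelial markers 2 and of 7 basal markers 3. The fibroblast markers COL1A2, COL3A1, DCN, LUM, PDGFRB and FAP, the endothelial marker PECAM1 and the basal markers KRT5, KRT14, KRT17 and TP63 were not well above background on every array of any line. Of those tested, THY1, a surface glycoprotein of fibroblasts, rose by 0.996 (SE 0.229, adjusted p = 0.0324), FCER1G, a subunit of Fc receptors, rose by 0.61 (SE 0.0943, adjusted p = 0.0127), and ACTA2, smooth muscle actin, fell by 0.58 (SE 0.152, adjusted p = 0.0453). The THY1 signal was 130.1 against 95.3 and 95.5 in T47D-VC1, 577 against 151 and 200.4 in T47D-PA5, and 92.6 against 46.5 and 59.5 in T47D-PA6. It was highest on the first T47D-PA5 array, and in each line the first array lay above both later ones.

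Within each line the first array differed from both later ones by more than these differed from each other. The median absolute difference over genes was 0.21 to 0.27 between the first array and a later one and 0.09 to 0.11 between the later ones. With the line as a block, 1321 of 20107 genes (6.57%) were higher and 1503 (7.48%) were lower in the first arrays by limma at an adjusted p under 0.05, or 2824 (14.0%) in all. Higher genes made up 46.78% of these calls, but 58.79% (1668 higher and 1169 lower) where the arrays were scaled to the 75th percentile of the probes well above background on all arrays. The first array lay above both later arrays in all 3 lines for 2984 genes (14.8%) and below both for 3131 (15.6%), and 1315 (6.54%) and 1491 (7.42%) of the called genes did so in the direction of the call. The study's own definition of changed genes, a fold above 2 or under 0.6 with no test, was met by 168 genes (0.836%) and 515 genes (2.56%). Where each line counted once, with limma on the 3 differences between its first array and the mean of its later ones, 0 genes passed, while 1569 higher and 1666 lower genes had an unadjusted p under 0.05. The calls thus rest on the spread between single arrays, with 5 residual degrees of freedom, and on few of them. Leaving out 1 array gave from 504 higher and 523 lower genes, without T47D-PA6 replicate 3, to 1831 and 2286, without T47D-PA5 replicate 1. Without T47D-VC1 replicate 1 the counts were 1148 and 1737. Without T47D-VC1 replicate 2 or 3 they were 711 and 823 or 607 and 703, without T47D-PA5 replicate 2 or 3 they were 536 and 644 or 675 and 775, and without T47D-PA6 replicate 1 or 2 they were 629 and 791 or 624 and 654.

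Genes of the hypoxia response lay lower on the first arrays at the median in all 3 lines. Of 48 hypoxia genes tested, 28 (58.3%, against 7.48% of all genes) fell and 2 rose. Of the 48, 31 lay below both later arrays in every line, beside 15.6% of all genes. The median difference of the 48 was -0.52, beside -0.02 over all genes tested. It was -0.28 (T47D-VC1), -0.71 (T47D-PA5) and -0.75 (T47D-PA6). In RNA of a whole culture, less of a transcript per cell and fewer cells that make it cannot be told apart. With 1 array left out the number lower was 19 to 36, except that it was 16 without T47D-PA6 replicate 1, and it was 22 without the probes in the area of raised spots, which held 13 of the 48. The hypoxia genes SLC2A3, IGFBP3, LOX and CA9 were too dim to be tested.

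Enzymes of glucose uptake and glycolysis made up the largest group. Of 18 tested, 12 fell and 0 rose, with a median difference of -0.55. PDK1, the kinase that shuts pyruvate out of the mitochondria by inactivating pyruvate dehydrogenase, had a signal of 428 on the first T47D-VC1 array against 1172 and 1108 on the later ones, 273 against 1414 and 1296 in T47D-PA5, and 192 against 1319 and 1342 in T47D-PA6. All 3 first arrays lay far below the 6 later ones, and the largest first value was under the lowest later value. PDK1 fell by 2.17 (SE 0.220, adjusted p = 0.00504), and its probe lies at chr2:173463273-173463332 on hg19. ALDOC, aldolase C, had a signal of 1183 against 1770.2 and 1658 in T47D-VC1, 648 against 3264 and 3003 in T47D-PA5, and 684 against 2636 and 2790 in T47D-PA6. HK2, the hexokinase that commits glucose to the pathway, had a signal of 528 against 805 and 780.1 in T47D-VC1, 189 against 992 and 891 in T47D-PA5, and 294 against 1015 and 1082 in T47D-PA6. In both genes the first arrays of T47D-PA5 and T47D-PA6 were the lowest of all 9, and the gap was smaller in T47D-VC1. ALDOC fell by 1.60 (SE 0.288, adjusted p = 0.0178) and HK2 fell by 1.58 (SE 0.276, adjusted p = 0.0167). PGK1, phosphoglycerate kinase, had a signal of 25265 against 39458 and 38206 in T47D-VC1, 18800 against 47745 and 44389 in T47D-PA5, and 17347 against 45936 and 46431 in T47D-PA6, and it fell by 1.11 (SE 0.142, adjusted p = 0.00884). LDHA, which reduces pyruvate to lactate and was chosen after its values were seen, fell by 1.09 (SE 0.203, adjusted p = 0.0186), from 39277 to 60737 on the later arrays to 19011 to 29907 on the first. GAPDH, often used as a reference gene, was chosen in the same way and fell by 0.43 (SE 0.0844, adjusted p = 0.0218). Its first arrays held 25863 to 27975 and its later arrays 32861 to 40769, with no overlap. SLC2A1, the main glucose carrier, was at 1237 against 1396 and 1178 in T47D-VC1, 947 against 1589 and 1597 in T47D-PA5, and 965 against 1551 and 1782 in T47D-PA6. Its difference of -0.53 (SE 0.148, adjusted p = 0.0549) did not pass.

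Genes of mitophagy, growth arrest and stress fell in 7 of 10 cases, with a median of -0.73. BNIP3, a receptor that marks mitochondria for removal, had a signal of 8069 against 12062 and 12158 in T47D-VC1, 4392 against 17578 and 16046 in T47D-PA5, and 4654 against 16346 and 16123 in T47D-PA6. The 3 first arrays were the lowest, at 4392 to 8069, and BNIP3 fell by 1.44 (SE 0.232, adjusted p = 0.0136). VLDLR, the receptor for very low density lipoprotein, had a signal of 102 against 183 and 174 in T47D-VC1, 143 against 316 and 290.4 in T47D-PA5, and 82.0 against 222 and 207 in T47D-PA6. It fell by 1.09 (SE 0.109, adjusted p = 0.00503), and no first array reached a later one. DDIT4, an inhibitor of mTORC1 chosen after its values were seen, had a signal of 3391 against 4688 and 4539 in T47D-VC1, 2432 against 5735 and 5476 in T47D-PA5, and 3404 against 8356 and 8549.9 in T47D-PA6, and it fell by 0.99 (SE 0.154, adjusted p = 0.0130).

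Of 7 genes of oxygen sensing and histone demethylation, 4 fell and 1 rose. KDM3A, a histone H3 lysine demethylase, was chosen after its values were seen and had a signal of 112 against 173 and 166 in T47D-VC1, 87.7 against 186 and 182 in T47D-PA5, and 77.6 against 208 and 219 in T47D-PA6. All first arrays lay below all later ones, and KDM3A fell by 1.04 (SE 0.142, adjusted p = 0.0102). HIF3A, a factor of the same family as HIF1A with splice forms that restrain it, went the other way. Its signal was 3109.7 against 2389 and 1872 in T47D-VC1, 3854 against 2675 and 3374 in T47D-PA5, and 5910 against 3446 and 3638 in T47D-PA6, and it rose by 0.55 (SE 0.121, adjusted p = 0.0290). The spot of HIF3A on T47D-PA6 replicate 1 lay in the area of raised spots.

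Among 8 genes of secreted factors and matrix, 4 fell and 1 rose. PLOD1, a lysyl hydroxylase of collagen, had a signal of 713 against 975 and 1005 in T47D-VC1, 797 against 1159 and 1092 in T47D-PA5, and 769 against 1291 and 1291 in T47D-PA6 and fell by 0.57 (SE 0.0746, adjusted p = 0.00915). ANGPTL4, a secreted inhibitor of lipoprotein lipase that was chosen after its values were seen, fell by 0.88 (SE 0.224, adjusted p = 0.0426). Its differences were -0.08 (T47D-VC1), -1.20 (T47D-PA5) and -1.35 (T47D-PA6), so nearly all of the fall lay in the lines with an insert. STC2, a secreted glycoprotein, was the other gene to rise, with a signal of 3392 against 1509 and 1637 in T47D-VC1, 2596 against 1771 and 1862 in T47D-PA5, and 1616 against 1161 and 1160 in T47D-PA6. It rose by 0.70 (SE 0.123, adjusted p = 0.0168), and it also belongs to the genes that ATF4 induces. Among 5 genes of pH control and glycogen, 1 fell and 0 rose.

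**Figure D2:**
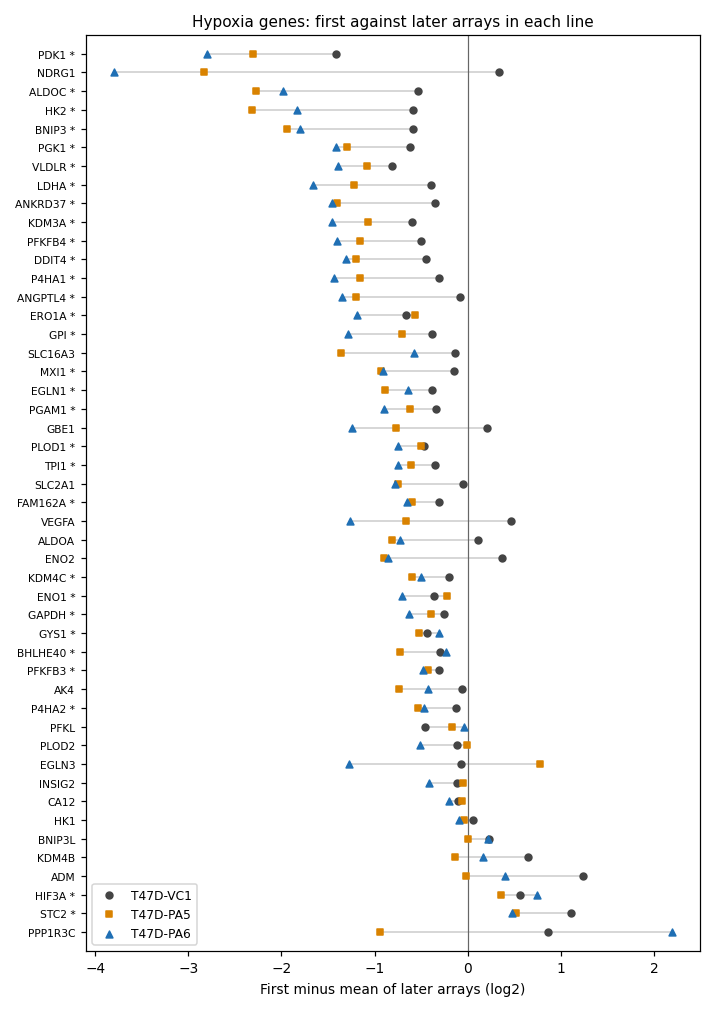
First minus mean of the later arrays (log2) for each of the 48 hypoxia genes tested, ordered by the mean of the 3 lines, with 1 point per line and a grey bar from the lowest to the highest. Asterisks mark genes with a limma adjusted p under 0.05, and the 28 lower ones lie to the left of 0 in all lines.

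Some hypoxia genes differed between lines in the size or sign of their difference, which was tested as an interaction of line and array order with 3 residual degrees of freedom. By this F-test 29 of the 48 passed, beside 3788 of all genes (18.8%). NDRG1, a growth arrest protein induced by low oxygen, had a signal of 2328 on the first T47D-VC1 array against 1793 and 1892 on the later ones, 431 against 2959 and 3166 in T47D-PA5, and 376 against 4900.3 and 5595 in T47D-PA6. The first arrays of T47D-PA5 and T47D-PA6 lay far below their later arrays, and that of T47D-VC1 lay above its own. The differences were 0.34 (T47D-VC1), -2.83 (T47D-PA5) and -3.80 (T47D-PA6) (F-test adjusted p = 0.00373). VEGFA, the main vascular growth factor, was at 1228 against 824 and 957 in T47D-VC1, 566 against 871 and 923 in T47D-PA5, and 664 against 1618 and 1572 in T47D-PA6 (F-test adjusted p = 0.0119). ADM, the vasodilator adrenomedullin, was at 24274 against 10302 and 10329 in T47D-VC1, 7834 against 7870 and 8032 in T47D-PA5, and 7748 against 5627 and 6149.5 in T47D-PA6 (F-test adjusted p = 0.0120). PPP1R3C, which targets a phosphatase to glycogen, was at 2575 against 1441 and 1399 in T47D-VC1, 2511 against 4698 and 4980.4 in T47D-PA5, and 8137 against 1723 and 1831 in T47D-PA6 (F-test adjusted p = 0.00373). In all of these the first array was above both later arrays in T47D-VC1, while T47D-PA5 was below or among them. TXNIP, a glucose-induced gene that MondoA drives, was not in the hypoxia list and had differences of 0.35 (T47D-VC1), -1.87 (T47D-PA5) and -0.995 (T47D-PA6) (F-test adjusted p = 0.00677). These 5 genes were chosen after their values were seen. Of the 3 genes of the MondoA list, 1 fell, ARRDC3, an arrestin of the same family as TXNIP, which fell by 0.65 (SE 0.114, adjusted p = 0.0163).

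The promoters of the hypoxia genes were read for the core of the hypoxia response element, the site that hypoxia-inducible factors bind. The letters searched were ACGTG and GCGTG on either strand, in the 250 bases before each gene's start. Promoters came from RefSeq on GRCh38.p14, and 11832 of the 20107 genes tested had one. A core stood in 36 of 45 hypoxia promoters (80%) and in 23 of the 28 whose gene fell (82.14%). It stood in 55.73% of all 11832 promoters, in 54.63% of those of all lower genes and in 52.98% of those of all higher genes. The lower genes as a whole thus held it about as often as all genes. The core was not particular to the hypoxia list, since it also stood in 17 of 20 promoters of cholesterol synthesis genes (85%). In 3 other lists it stood in 42.86% (heat shock), 38.71% (interferon) and 20% (histones) of promoters. The sequences below are those of the 4 hypoxia genes with the largest fall among those with a core. They lie at chr17:28576896-28577145 (minus strand), chr2:74833877-74834126 (plus strand), chr10:131981924-131982173 (minus strand) and chrX:78103998-78104247 (plus strand), and each ends at the base before the start. Capitals mark the cores, which read CACGT or CACGC where they lie on the other strand. The run CACGTG, which is also the E-box bound by MYC and the clock proteins, counts as a core on both strands. ALDOC held 5 cores, HK2 3, BNIP3 6 and PGK1 3. The window of PDK1 held 0, although its fall was larger than theirs.
ALDOC: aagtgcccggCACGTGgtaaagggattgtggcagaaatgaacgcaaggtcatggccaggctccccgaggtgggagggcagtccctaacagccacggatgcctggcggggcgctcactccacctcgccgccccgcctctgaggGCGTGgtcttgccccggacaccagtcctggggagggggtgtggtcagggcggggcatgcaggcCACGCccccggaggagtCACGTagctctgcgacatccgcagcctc
HK2: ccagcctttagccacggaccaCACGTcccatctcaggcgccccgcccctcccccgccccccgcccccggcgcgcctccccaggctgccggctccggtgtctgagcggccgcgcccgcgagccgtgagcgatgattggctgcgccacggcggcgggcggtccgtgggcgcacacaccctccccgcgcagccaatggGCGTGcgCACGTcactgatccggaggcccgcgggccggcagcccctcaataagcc
BNIP3: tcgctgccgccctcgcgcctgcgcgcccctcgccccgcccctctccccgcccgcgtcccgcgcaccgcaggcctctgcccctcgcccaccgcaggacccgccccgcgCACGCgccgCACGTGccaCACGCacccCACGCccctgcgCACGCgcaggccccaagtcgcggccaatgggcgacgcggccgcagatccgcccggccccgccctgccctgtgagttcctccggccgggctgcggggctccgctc
PGK1: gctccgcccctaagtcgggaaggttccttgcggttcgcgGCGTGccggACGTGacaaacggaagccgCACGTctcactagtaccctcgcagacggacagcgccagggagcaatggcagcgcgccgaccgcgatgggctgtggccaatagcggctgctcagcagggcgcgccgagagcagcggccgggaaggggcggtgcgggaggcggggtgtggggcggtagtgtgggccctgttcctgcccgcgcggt

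The 12 largest rises among genes called, the same way in all 3 lines and well above background on all 9 arrays, included those of FAM177B, LGI1, CGNL1, CYP1A1, C11orf97, S100A8, ROPN1L, SGK1, LOC101928105, MAF and STS. FAM177B, whose probe lies at chr1:222923479-222923538 on hg19, had a signal of 929 on the first T47D-VC1 array against 229 and 198 on the later ones, 1533 against 180.0 and 199 in T47D-PA5, and 908 against 214 and 182 in T47D-PA6. The 3 first arrays were all above 900 and the 6 later ones all below 230. FAM177B rose by 2.45 (SE 0.171, adjusted p = 0.00436), a 5.46-fold higher level. S100A8, a calcium-binding protein of inflamed epithelium and myeloid cells, had a signal of 1572 against 492 and 441 in T47D-VC1, 2248 against 388 and 453 in T47D-PA5, and 477 against 201 and 218 in T47D-PA6. It rose by 1.79 (SE 0.202, adjusted p = 0.00654), and the first T47D-PA6 array, at 477, overlapped the later arrays of the other lines. CGNL1, a protein of epithelial junctions, had a signal of 7582 against 679.9 and 638 in T47D-VC1, 3050.3 against 1308 and 1374 in T47D-PA5, and 1771 against 522 and 539 in T47D-PA6. Its first T47D-VC1 array was the highest of all, and CGNL1 rose by 2.15 (SE 0.373, adjusted p = 0.0163) with differences of 3.52 (T47D-VC1), 1.19 (T47D-PA5) and 1.74 (T47D-PA6) (F-test adjusted p = 0.00469).

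MAF, a basic leucine zipper transcription factor, had a signal of 60.1 against 20.1 and 20.4 in T47D-VC1, 53.1 against 27.0 and 25.5 in T47D-PA5, and 41.7 against 14.6 and 13.3 in T47D-PA6. Its first arrays, at 41.7 to 60.1, did not overlap the later ones, at 13.3 to 27.0, and MAF rose by 1.39 (SE 0.116, adjusted p = 0.00436). STS, steroid sulfatase, which frees estrogen and androgen precursors from their sulfates, had a signal of 185 against 41.3 and 49.7 in T47D-VC1, 84.6 against 51.8 and 36.2 in T47D-PA5, and 114 against 47.4 and 55.8 in T47D-PA6. No later array reached any first array, and STS rose by 1.38 (SE 0.213, adjusted p = 0.0128). LGI1, a secreted leucine-rich protein, had a signal of 131 against 22.6 and 19.3 in T47D-VC1, 385 against 104 and 103 in T47D-PA5, and 197 against 38.3 and 59.0 in T47D-PA6, and it rose by 2.20 (SE 0.180, adjusted p = 0.00436). LOC101928105, an uncharacterized noncoding gene, had a signal of 52.9 against 32.8 and 31.2 in T47D-VC1, 45.2 against 16.1 and 21.3 in T47D-PA5, and 97.7 against 13.6 and 29.6 in T47D-PA6 and rose by 1.43 (SE 0.328, adjusted p = 0.0324).

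In the other 4 of these rises 1 line moved much less than the rest. SGK1, a kinase induced by glucocorticoids and osmotic stress, had a signal of 288 against 57.9 and 54.1 in T47D-VC1, 239 against 67.6 and 68.5 in T47D-PA5, and 78.6 against 62.4 and 76.9 in T47D-PA6. The first T47D-PA6 array exceeded its later arrays by a narrow margin, and SGK1 rose by 1.45 (SE 0.351, adjusted p = 0.0369) (F-test adjusted p = 0.0115). CYP1A1, the xenobiotic oxidase that the aryl hydrocarbon receptor induces, had a signal of 566 against 95.1 and 76.8 in T47D-VC1, 172 against 128 and 118 in T47D-PA5, and 483 against 81.7 and 83.0 in T47D-PA6, and it rose by 1.92 (SE 0.384, adjusted p = 0.0224) (F-test adjusted p = 0.0102). Here the small difference was that of T47D-PA5. ROPN1L, a protein of radial spokes in motile cilia, and C11orf97 also had their smallest difference in T47D-PA5. The differences were 1.93 (T47D-VC1), 0.46 (T47D-PA5) and 2.85 (T47D-PA6) for ROPN1L and 2.07 (T47D-VC1), 0.50 (T47D-PA5) and 2.98 (T47D-PA6) for C11orf97. ROPN1L rose by 1.75 (SE 0.368, adjusted p = 0.0259) and C11orf97 rose by 1.85 (SE 0.396, adjusted p = 0.0273). The spots of CYP1A1 and MAF on T47D-PA6 replicate 1 lay in the area of raised spots, and those of LGI1, C11orf97 and LOC101928105 lay outside it with 1 to 3 raised spots beside them. The rule that chose these genes required the first arrays of T47D-VC1 and T47D-PA5 to lie above their later arrays too.

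Besides PDK1, ALDOC, HK2 and BNIP3, the 12 largest falls chosen by the same rule were those of PRDM1, PGF, EDN2, LYN, SPAG4, SKAP2, C1orf21 and PPP1R1B. PRDM1, the repressor Blimp-1 that ends proliferation in lymphoid and epithelial cells, had a signal of 30.5 on the first T47D-VC1 array against 110.1 and 96.1 on the later ones, 16.2 against 76.5 and 63.6 in T47D-PA5, and 64.3 against 182 and 209 in T47D-PA6. Each first array lay well below its own later arrays, and PRDM1 fell by 1.82 (SE 0.119, adjusted p = 0.00436) with nearly even steps of -1.76 (T47D-VC1), -2.10 (T47D-PA5) and -1.60 (T47D-PA6). LYN, a kinase of the Src family, had a signal of 54.9 against 198 and 179 in T47D-VC1, 119 against 251 and 257 in T47D-PA5, and 136 against 357 and 387 in T47D-PA6. The first arrays, at 54.9 to 136, lay below all later arrays, at 179 to 387, and LYN fell by 1.44 (SE 0.122, adjusted p = 0.00436). SKAP2, an adaptor of Src kinases, had a signal of 641 against 1491 and 1552 in T47D-VC1, 997 against 3582 and 3780.1 in T47D-PA5, and 914 against 1729 and 1804 in T47D-PA6, and it fell by 1.36 (SE 0.156, adjusted p = 0.00676). On T47D-PA6 replicate 1 a spot of PRDM1 and some of the spots of LYN lay in the area of raised spots. The first value was the lower one, as the rule that chose these genes required.

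PGF, placental growth factor, a relative of VEGFA, had a signal of 28.7 against 82.5 and 61.1 in T47D-VC1, 21.9 against 46.5 and 64.4 in T47D-PA5, and 28.9 against 146 and 189.6 in T47D-PA6. EDN2, the vasoconstrictor endothelin 2, had a signal of 93.6 against 229 and 185 in T47D-VC1, 110.1 against 247 and 282 in T47D-PA5, and 103 against 383 and 423 in T47D-PA6. For both genes the 3 first arrays were lower than all 6 later arrays, and PGF fell by 1.72 (SE 0.257, adjusted p = 0.0120) while EDN2 fell by 1.45 (SE 0.162, adjusted p = 0.00619). SPAG4, a SUN domain protein of the nuclear envelope, had a signal of 719 against 1079 and 1058 in T47D-VC1, 301 against 1491 and 1276 in T47D-PA5, and 551 against 1484 and 1498 in T47D-PA6, and it fell by 1.40 (SE 0.255, adjusted p = 0.0179). C1orf21 fell by 1.35 (SE 0.252, adjusted p = 0.0189) and PPP1R1B, the phosphatase inhibitor DARPP-32, fell by 1.31 (SE 0.254, adjusted p = 0.0207). The C1orf21 differences were -1.04 (T47D-VC1), -0.74 (T47D-PA5) and -2.28 (T47D-PA6), and those of PPP1R1B were -1.18 (T47D-VC1), -2.17 (T47D-PA5) and -0.60 (T47D-PA6).

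**Figure D3:**
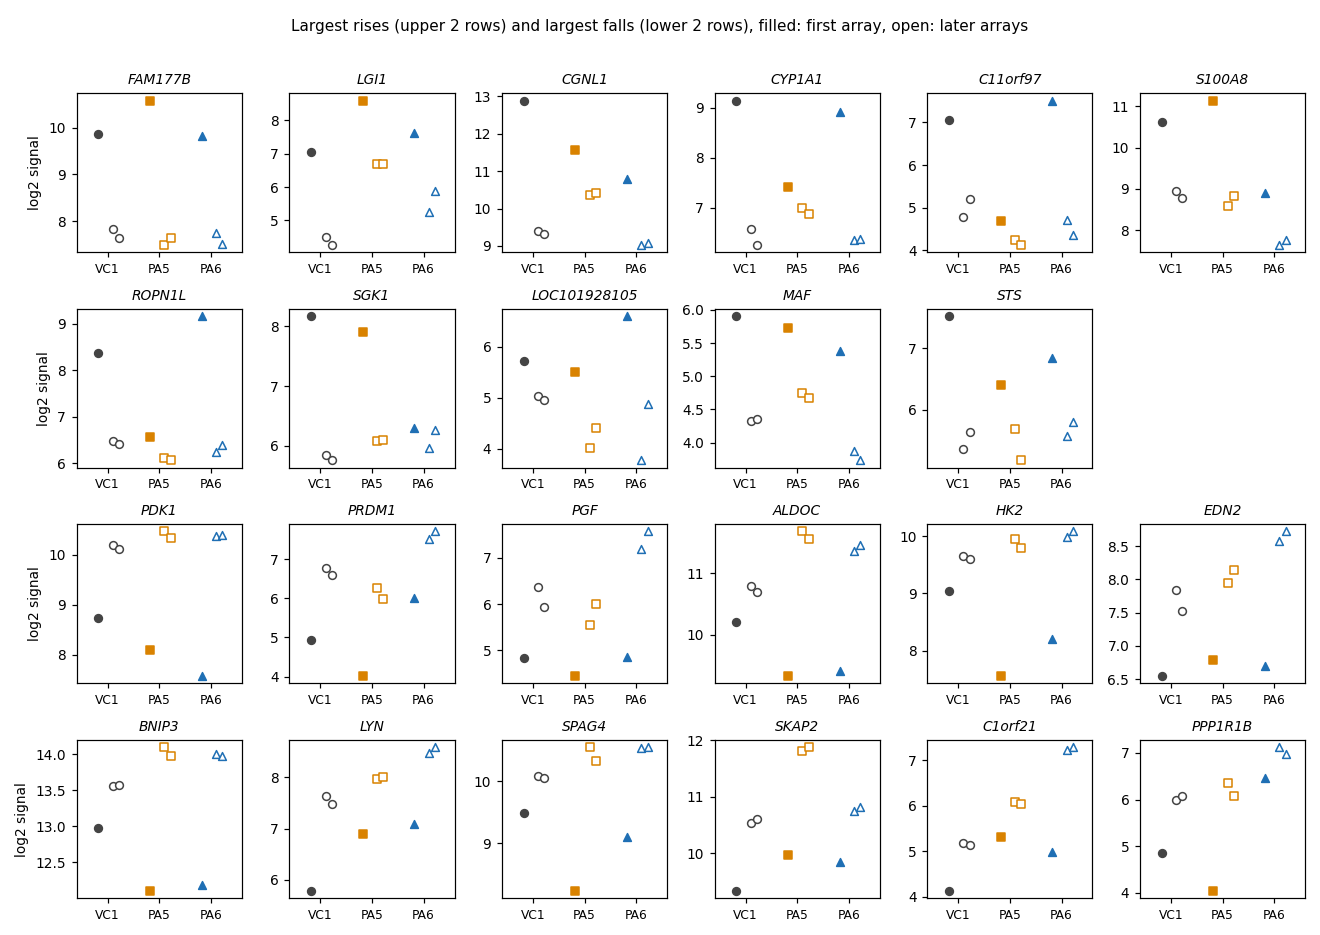
log2 signal of 11 of the 12 genes with the largest rise (upper 2 rows of panels) and the 12 with the largest fall (lower 2 rows) on each of the 9 arrays, by line, with a separate scale per panel. Filled symbols are the first arrays and open symbols the later ones. In every panel and line the filled symbol lies on the same side of both open symbols, as the rule that chose these genes required.

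Antiviral genes that interferons induce went in different directions in different lines. Of 40 tested, 7 (17.5%, against 7.48% of all genes) fell and 0 rose. Of the 40, 10 lay below both later arrays in every line, beside 15.6% of all genes. The median difference was -0.41, from 0.19 in T47D-VC1 through -0.31 in T47D-PA6 to -1.03 in T47D-PA5. The difference between lines passed the F-test for 30 of the 40, beside 18.8% of all genes. The lower genes included CMPK2, SAMD9, OAS2, EPSTI1, HERC5 and BST2. CMPK2, a mitochondrial nucleotide kinase, had a signal of 4.59 against 14.5 and 15.9 in T47D-VC1, 42.5 against 67.8 and 86.8 in T47D-PA5, and 235 against 454 and 505 in T47D-PA6. SAMD9, an antiviral protein, had a signal of 4.69 against 11.3 and 7.504 in T47D-VC1, 16.5 against 39.0 and 26.7 in T47D-PA5, and 27.6 against 67.6 and 80.5 in T47D-PA6. SAMD9 was well above background on 1 of the 3 first and 4 of the 6 later arrays and on none of T47D-VC1, and CMPK2 on 2 and 5, so that their differences in T47D-VC1 lie at background and no fall averaged over lines is given. EPSTI1 was well above background on 1 of the 3 first and 4 of the 6 later arrays and is treated in the same way. BST2, or tetherin, which holds budding virus at the cell surface, had a signal of 10329 against 14506 and 14418 in T47D-VC1, 14715 against 29818 and 27890 in T47D-PA5, and 45573 against 56775 and 53473 in T47D-PA6, and it fell by 0.58 (SE 0.124, adjusted p = 0.0273). HERC5, the ligase for ISG15, fell by 0.60 (SE 0.109, adjusted p = 0.0182). The number lower was 18 without T47D-VC1 replicate 1 and 2 to 5 without any 1 of the arrays other than the first of T47D-VC1 and of T47D-PA5. It was 7 without the first of T47D-PA5.

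In other interferon genes the size or the sign of the difference was not the same in the 3 lines. The genes that follow were chosen after their values were seen. ISG15, the ubiquitin-like modifier, was at 1099 against 621 and 516 in T47D-VC1, 3001 against 9074 and 8253 in T47D-PA5, and 47745 against 61086 and 63741 in T47D-PA6 (F-test adjusted p = 0.00954). OASL, an antiviral protein related to oligoadenylate synthetases, was at 153 against 75.3 and 74.2 in T47D-VC1, 202 against 648 and 651 in T47D-PA5, and 2796 against 4282 and 4254 in T47D-PA6 (F-test adjusted p = 0.00373). The first T47D-VC1 array was above both of its later arrays in both genes, and the first arrays of T47D-PA5 and T47D-PA6 were below theirs. IFIT1, which binds foreign RNA, had differences of -0.08 (T47D-VC1), -1.69 (T47D-PA5) and -0.63 (T47D-PA6) (F-test adjusted p = 0.0104), and MX1, an antiviral GTPase, had -0.30 (T47D-VC1), -1.96 (T47D-PA5) and -0.05 (T47D-PA6) (F-test adjusted p = 0.0174). As a result, the ratio between lines was not the same within first and later arrays. ISG15 was at 1099 in T47D-VC1 and 47745 in T47D-PA6 on the first arrays, and at 516 to 621 and 61086 to 63741 on the later ones. Over the 40 interferon genes the median log2 ratio of T47D-PA6 to T47D-VC1 was 3.03 on the first and 3.20 on the later arrays. That of T47D-PA5 to T47D-VC1 was 0.65 on the first and 2.04 on the later arrays. On T47D-PA6 replicate 1 the spots of ISG15 and OASL lay in the area of raised spots, where their signal was still below that of the later arrays.

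The interferon-stimulated response element, searched as GAAA, any 2 bases and GAAA on either strand, stood in 17 of 31 promoters of these genes (54.84%) and in 2.443% of all promoters. It stood in 3.599% of the promoters of all lower genes, in 2.038% of those of all higher genes, and in 4 of the 5 lower interferon genes with a promoter. The promoters of HERC5, at chr4:88456869-88457118 (plus strand), and BST2, at chr19:17405631-17405880 (minus strand), are shown, since both genes fell, hold a match and were well above background on all 9 arrays. Capitals mark the matches, which read TTTC, any 2 bases and TTTC where they lie on the other strand. Matches that overlap were counted singly, 3 in HERC5 and 2 in BST2.
HERC5: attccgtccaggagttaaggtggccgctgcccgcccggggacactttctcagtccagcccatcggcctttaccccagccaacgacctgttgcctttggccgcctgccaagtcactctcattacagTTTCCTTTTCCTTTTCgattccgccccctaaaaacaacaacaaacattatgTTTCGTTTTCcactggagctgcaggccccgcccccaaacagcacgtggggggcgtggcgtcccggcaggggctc
BST2: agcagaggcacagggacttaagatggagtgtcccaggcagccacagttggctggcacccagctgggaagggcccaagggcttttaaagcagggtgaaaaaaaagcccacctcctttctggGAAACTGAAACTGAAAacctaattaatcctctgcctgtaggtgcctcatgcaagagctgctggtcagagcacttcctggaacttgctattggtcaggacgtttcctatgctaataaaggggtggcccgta

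Genes of mitosis lay lower on the first arrays of T47D-VC1 and T47D-PA6 and near 0 in T47D-PA5, at the median. Of 30 tested, 11 (36.7%, against 7.48% of all genes) fell and 0 rose, with a median of -0.46. The median was -0.82 in T47D-VC1, -0.53 in T47D-PA6 and -0.02 in T47D-PA5. By the F-test 25 of the 30 differed between lines, beside 18.8% of all genes. TOP2A, the topoisomerase that separates sister chromatids, had a signal of 3172 against 4805 and 5135 in T47D-VC1, 4058 against 5004 and 4667 in T47D-PA5, and 2253 against 3233 and 3196 in T47D-PA6, and it fell by 0.47 (SE 0.0864, adjusted p = 0.0182). BUB1, a kinase of the spindle checkpoint, had a signal of 799 against 1620 and 1695 in T47D-VC1, 1364 against 1612 and 1601 in T47D-PA5, and 951 against 1683 and 1584 in T47D-PA6, and it fell by 0.69 (SE 0.139, adjusted p = 0.0228). In T47D-PA5 the first array was below the later ones by less than in the other lines. CDK1, the kinase that starts mitosis, fell by 0.49 (SE 0.1005, adjusted p = 0.0238), and PTTG1, or securin, fell by 0.60 (SE 0.130, adjusted p = 0.0276). CCNA2, cyclin A2, was at 819 against 1778 and 1678 in T47D-VC1, 1449 against 1479.8 and 1407 in T47D-PA5, and 998 against 1625 and 1666 in T47D-PA6 (F-test adjusted p = 0.0142). AURKB, Aurora kinase B, was at 359 against 764 and 741 in T47D-VC1, 625 against 516 and 539 in T47D-PA5, and 418 against 687 and 729.7 in T47D-PA6 (F-test adjusted p = 0.0102). In these 2, chosen after their values were seen, the first T47D-PA5 array lay among or above its later arrays. The number lower was 0 without T47D-PA6 replicate 1, 26 without T47D-PA5 replicate 1, and 1 to 6 without any other 1 array. Without the probes in the area of raised spots, which held 11 of the 30, it was 7 with a median of -0.35.

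**Figure D4:**
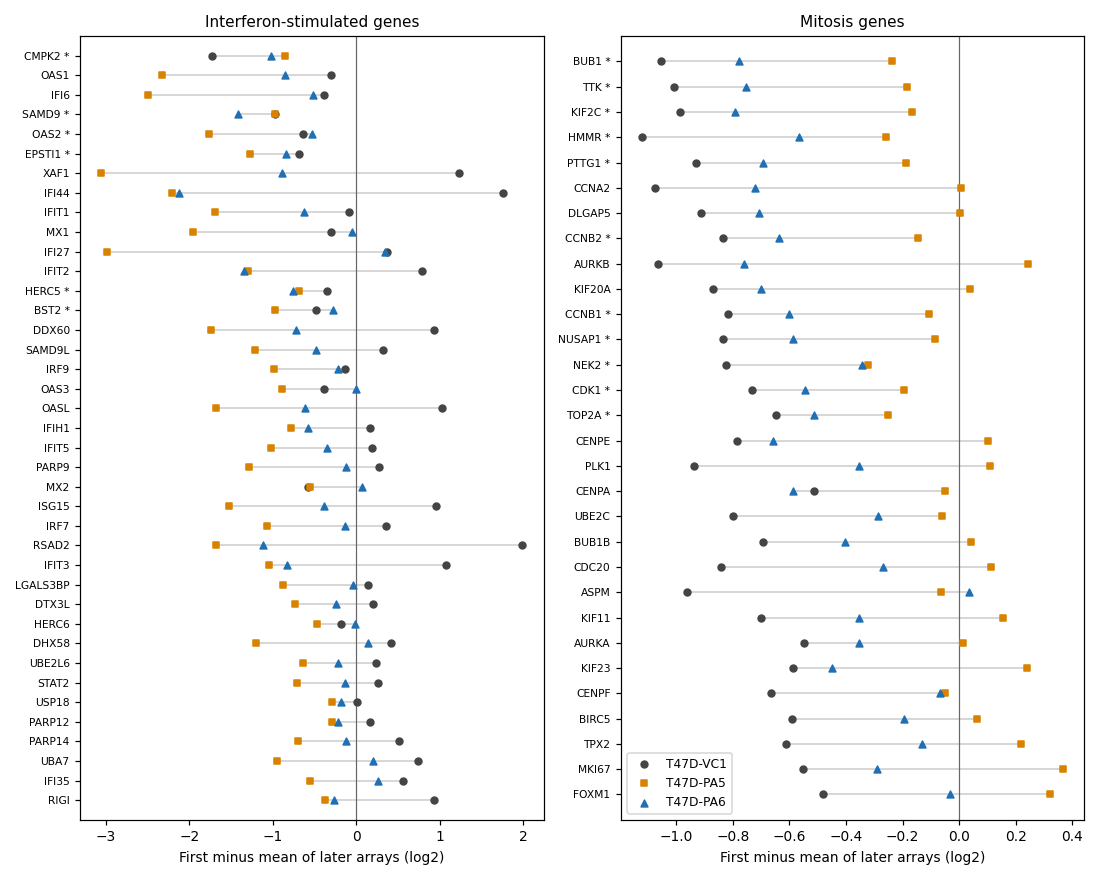
First minus mean of the later arrays (log2) for 39 of the 40 interferon-stimulated genes (left) and the 30 mitosis genes (right) tested, with 1 point per line and asterisks at a limma adjusted p under 0.05. T47D-PA5 lies to the left among the interferon genes and at about 0 among the mitosis genes, where T47D-VC1 and T47D-PA6 lie to the left.

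Of 30 genes of DNA replication, 0 were called in either direction by limma and 3 had an unadjusted p under 0.05. By the F-test 26 of them differed between lines, beside 18.8% of all genes. The median was -0.42 (T47D-VC1), 0.30 (T47D-PA5) and 0.00 (T47D-PA6). MCM2, a subunit of the replicative helicase chosen after its values were seen, was at 3606 against 5018 and 5013 in T47D-VC1, 6251 against 4536 and 4366 in T47D-PA5, and 3492 against 2590.5 and 2700.3 in T47D-PA6 (F-test adjusted p = 0.0125). It was lower on the first array in T47D-VC1 and higher in the other lines. Histone genes of the clusters that are expressed during DNA synthesis lay higher on the first arrays at the median. Of 60 tested, 15 (25.0%, against 6.57% of all genes) rose and 0 fell. Of the 60, 26 lay above both later arrays in every line, beside 14.8% of all genes. The median of the 60 was 0.27, and it was 0.27, 0.26 and 0.20 in the order T47D-VC1, T47D-PA5, T47D-PA6. H4C8, a histone H4 gene, had a signal of 3215 against 2106 and 2004 in T47D-VC1, 3758 against 2458 and 2712 in T47D-PA5, and 2926 against 2325 and 2421 in T47D-PA6, and it rose by 0.50 (SE 0.0834, adjusted p = 0.0152). H3C12, a histone H3 gene, had a signal of 1309 against 1047 and 1032 in T47D-VC1, 1876 against 1241 and 1305 in T47D-PA5, and 1449 against 894 and 861 in T47D-PA6, and it rose by 0.54 (SE 0.0833, adjusted p = 0.0128). H1-4, a linker histone, rose by 0.45 (SE 0.0919, adjusted p = 0.0238). These 3 were chosen after their values were seen, and because histone genes are near-identical copies, a probe may read several of them. Which form of the histone transcripts gave the signal was not tested. The number higher was 15 without T47D-VC1 replicate 1, 12 without T47D-PA5 replicate 1 and 3 to 7 without any other 1 array, 8 under a 75th percentile scaling, and 14 without the probes in the area of raised spots.

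The genes that YAP and TEAD drive, which fall when epithelial cells become dense, were called in 2 cases. Of 15 tested, 2 (13.3%, against 6.57% of all genes) rose and 0 fell, with a median of 0.06. CCN1, a secreted matrix protein that is also an immediate early gene, had a signal of 9422 against 6795 and 7252 in T47D-VC1, 12813 against 5923 and 5554 in T47D-PA5, and 15698 against 13574 and 12972 in T47D-PA6. It rose by 0.61 (SE 0.159, adjusted p = 0.0451), most in T47D-PA5. PTPN14, a phosphatase that restrains YAP, rose by 0.45 (SE 0.0849, adjusted p = 0.0200), and its spot on T47D-PA6 replicate 1 lay in the area of raised spots. CCN2, ANKRD1 and CRIM1 were too dim to be tested. Without T47D-PA6 replicate 2, 0 genes of this list were called, and 1 was called without each of 6 other arrays. Among 15 inhibitors of the cell cycle and markers of quiescence 3 (20%, against 7.48% of all genes) fell and 0 rose. The number lower was 0 without T47D-VC1 replicate 3 and 6 without T47D-VC1 replicate 1. The 3 were CCNG2, an atypical cyclin, which fell by 0.50 (SE 0.114, adjusted p = 0.0321), RBL2, the pocket protein p130, which fell by 0.29 (SE 0.0731, adjusted p = 0.0395), and SESN1, a sestrin, which fell by 0.33 (SE 0.0870, adjusted p = 0.0456).

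Stress programs other than hypoxia were called in small numbers of genes, and these are read against the 6.57% of all genes that were higher and the 7.48% that were lower. Of 23 heat shock genes 4 (17.4%) rose and 2 (8.70%) fell, with a median of 0.05. HSPA8, the constitutive HSP70 chaperone, had a signal of 34369 against 25695 and 25641 in T47D-VC1, 31180 against 25905 and 23549 in T47D-PA5, and 24013 against 19152 and 18689 in T47D-PA6. HSPH1, its nucleotide exchange partner, had a signal of 4326 against 3090.3 and 2973 in T47D-VC1, 4311 against 3454 and 3774 in T47D-PA5, and 3182 against 1912 and 2019.8 in T47D-PA6. Every first array was above both later arrays of its line, and HSPA8 rose by 0.37 (SE 0.0636, adjusted p = 0.0163) while HSPH1 rose by 0.49 (SE 0.0918, adjusted p = 0.0194). The spot of HSPA8 on T47D-PA6 replicate 1 lay in the area of raised spots. The small heat shock proteins CRYAB and HSPB8 also rose, by 0.41 (adjusted p = 0.0130) and 0.95 (adjusted p = 0.0318). HSPA4L, a chaperone of the HSP110 type, fell by 0.41 (SE 0.104, adjusted p = 0.0423), and DNAJB4, an HSP40 cochaperone, fell by 0.51 (SE 0.137, adjusted p = 0.0489).

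Of 23 genes of the unfolded protein response 5 (21.7%) fell and 0 rose, with a median of -0.12. With 1 array left out the number lower was 1 to 4, fewest without T47D-PA5 replicate 2. EDEM1, which sends misfolded glycoproteins to degradation, fell by 0.58 (SE 0.101, adjusted p = 0.0167). MANF, a secreted stress protein of the endoplasmic reticulum, fell by 0.33 (SE 0.0608, adjusted p = 0.0182), SYVN1, the ligase HRD1, fell by 0.35 (SE 0.0711, adjusted p = 0.0230), and PDIA3, a disulfide isomerase, fell by 0.29 (SE 0.0665, adjusted p = 0.0333). Of 36 genes of ATF4 and the amino acid response 2 rose and 1 fell, while 32 differed between lines, beside 18.8% of all genes. Medians of the 36 were -0.24 (T47D-VC1), 0.49 (T47D-PA5) and -0.14 (T47D-PA6). NUPR1, a stress-induced chromatin protein, had a signal of 74542 against 62404 and 64022 in T47D-VC1, 57739 against 37021 and 35827 in T47D-PA5, and 66540 against 48689 and 48935 in T47D-PA6, and it rose by 0.45 (SE 0.0861, adjusted p = 0.0202). CTH, the enzyme that makes cysteine from cystathionine, had a signal of 249 against 733 and 677 in T47D-VC1, 343 against 494 and 512 in T47D-PA5, and 322 against 523 and 497 in T47D-PA6, and it fell by 0.91 (SE 0.167, adjusted p = 0.0186). Of 21 genes of oxidative stress only FTH1, ferritin heavy chain, was called, and it rose by 0.43 (SE 0.0868, adjusted p = 0.0237). Of 12 NF-kB targets 0 were called by limma, and 3 had an unadjusted p under 0.05.

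Among 19 p53 targets 1 (5.26%) rose and 4 (21.1%) fell, and 1 to 4 fell with 1 array left out. BAX, which opens the mitochondrial membrane in apoptosis, rose by 0.42 (SE 0.0834, adjusted p = 0.0218), whereas PLK3, a stress kinase, fell by 0.70 (SE 0.0996, adjusted p = 0.0107). DDB2, a subunit that recognizes ultraviolet damage, fell by 0.43 (SE 0.0862, adjusted p = 0.0229), CCNG1, cyclin G1, fell by 0.35 (SE 0.0796, adjusted p = 0.0312), and SESN1 fell as given above. Of 25 immediate early genes 3 (12%) rose and 2 (8%) fell. JUN, a subunit of AP-1, had a signal of 1351 against 547 and 568 in T47D-VC1, 928 against 599 and 663 in T47D-PA5, and 1331 against 795 and 825 in T47D-PA6. All first arrays were above all later ones, and JUN rose by 0.85 (SE 0.130, adjusted p = 0.0125). NR4A2, an orphan nuclear receptor, rose by 0.83 (SE 0.212, adjusted p = 0.0417). DUSP6, a phosphatase of ERK, had a signal of 177 against 528 and 514 in T47D-VC1, 257 against 340.4 and 353 in T47D-PA5, and 428 against 716 and 716 in T47D-PA6, and it fell by 0.91 (SE 0.185, adjusted p = 0.0235). IER3, an early survival gene, fell by 0.52 (SE 0.133, adjusted p = 0.0434). Of 21 genes of lysosomes and autophagy 3 (14.3%) rose and 0 fell, but 0 rose without T47D-VC1 replicate 2 and 8 without T47D-PA5 replicate 1. SQSTM1, the autophagy receptor p62, rose by 0.55 (SE 0.134, adjusted p = 0.0366), RRAGD, a GTPase that signals nutrients to mTORC1, rose by 0.34 (SE 0.0751, adjusted p = 0.0287), and MCOLN1, a lysosomal calcium channel, rose by 0.30 (SE 0.0788, adjusted p = 0.0473).

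Lipid and clock genes were lower where called, and these counts are read against the 7.48% of all genes that were lower. Of 26 genes of cholesterol synthesis and uptake 4 (15.4%) fell and 0 rose, with a median of -0.19. STARD4, a sterol carrier, had a signal of 224 against 309 and 271 in T47D-VC1, 250.1 against 329 and 358 in T47D-PA5, and 175 against 308 and 315 in T47D-PA6, and it fell by 0.55 (SE 0.102, adjusted p = 0.0182). HMGCS1, an early enzyme of the pathway, fell by 0.39 (SE 0.0962, adjusted p = 0.0381), and FDPS, farnesyl diphosphate synthase, fell by 0.29 (SE 0.0742, adjusted p = 0.0420). Of 14 genes of fatty acid synthesis 2 fell and 0 rose. SCD, the desaturase that makes oleate, had a signal of 1399 against 1805 and 1826 in T47D-VC1, 1395 against 1842 and 1814 in T47D-PA5, and 1383 against 1844 and 1794 in T47D-PA6. Its differences were almost the same in all lines, -0.38 (T47D-VC1), -0.39 (T47D-PA5) and -0.39 (T47D-PA6), and it fell by 0.39 (SE 0.0569, adjusted p = 0.0115). ELOVL6, an elongase, had a signal of 52.9 against 177 and 181 in T47D-VC1, 106.5 against 189 and 204 in T47D-PA5, and 73.5 against 135 and 136 in T47D-PA6 and fell by 1.17 (SE 0.164, adjusted p = 0.0105). Of 15 circadian clock genes 4 (26.7%) fell and 0 rose. The median of the clock list was 0.09 (T47D-VC1), -0.45 (T47D-PA5) and -0.30 (T47D-PA6). In both the cholesterol and the clock list 7 fell without T47D-VC1 replicate 1, while 1 fell without replicate 2 or 3 of any line. NR1D2, a nuclear receptor that represses clock genes, had a signal of 327 against 414 and 419.6 in T47D-VC1, 247 against 418 and 384 in T47D-PA5, and 337 against 532 and 535 in T47D-PA6, and it fell by 0.57 (SE 0.0836, adjusted p = 0.0115). PER1, a period gene that glucocorticoids also induce, fell by 0.40 (SE 0.0902, adjusted p = 0.0313), TEF, an output factor of the clock, fell by 0.59 (SE 0.146, adjusted p = 0.0386), and BHLHE40, which is a hypoxia gene as well, fell by 0.42 (SE 0.0985, adjusted p = 0.0343).

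Genes that estrogen and progesterone induce gave 2 rises (8.33%) and 1 fall (4.17%) among 24. The counts in these lists are read against the 6.57% of all genes that were higher and the 7.48% that were lower. By the F-test 17 of the 24 differed between lines, beside 18.8% of all genes. Medians of the 24 were 0.29 (T47D-VC1), -0.18 (T47D-PA5) and -0.12 (T47D-PA6). TFF3, a secreted trefoil peptide, had a signal of 70852 against 40769 and 40158 in T47D-VC1, 60909 against 57603 and 53586 in T47D-PA5, and 75073 against 36684 and 38120 in T47D-PA6, and it rose by 0.65 (SE 0.150, adjusted p = 0.0332). AREG, the growth factor amphiregulin, had a signal of 2605 against 7066 and 7574 in T47D-VC1, 3720.1 against 6085 and 6191 in T47D-PA5, and 3471 against 8703 and 8036 in T47D-PA6. Every first array was below every later array, and AREG fell by 1.16 (SE 0.135, adjusted p = 0.00686). HSPB8 belongs to this list too. Of 12 genes of the glucocorticoid and progestin response 1 (8.33%) rose, SGK1, and 2 (16.7%) fell, PER1 and FKBP5. FKBP5, a cochaperone of steroid receptors, fell by 0.27 (SE 0.0619, adjusted p = 0.0333). Of 7 metallothioneins 1 (14.3%) fell, MT1F, which fell by 0.64 (SE 0.139, adjusted p = 0.0281). MT2A, chosen after its values were seen, was at 13707 against 30162 and 26061 in T47D-VC1, 26061 against 22031 and 22948 in T47D-PA5, and 35405 against 87753 and 87753 in T47D-PA6 (F-test adjusted p = 0.0124), lower on the first array in T47D-VC1 and T47D-PA6 and not in T47D-PA5. Metallothionein genes are near-identical, and a probe may read more than 1.

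Probes of small noncoding RNAs gave lower signals on the first arrays where they were called. Which form of these RNAs, mature or precursor, gave the signal was not tested. Of 176 snoRNA genes, whose RNAs guide the modification of ribosomal RNA, 35 (19.9%, against 7.48% of all genes) fell and 0 rose. Of the 176, 64 lay below both later arrays in every line, beside 15.6% of all genes. The median of the 176 was -0.32, and it was -0.22 (T47D-VC1), -0.26 (T47D-PA5) and -0.45 (T47D-PA6). SNORD99, chosen after its values were seen, had a signal of 86.7 against 115 and 140.0 in T47D-VC1, 67.5 against 124 and 135 in T47D-PA5, and 54.8 against 125 and 142 in T47D-PA6, and it fell by 0.92 (SE 0.141, adjusted p = 0.0124). Of 15 genes of the snRNA class 8 (53.3%, against 7.48% of all genes) fell and 0 rose. With 1 array left out the number lower was 1, without T47D-PA6 replicate 3, to 8, without T47D-PA5 replicate 1. All 8 belong to the SNAR family of near-identical transcripts made by RNA polymerase III, so they cannot be read as 8 separate genes. SNAR-A3, chosen after its values were seen, had a signal of 39277 against 74542 and 78176 in T47D-VC1, 80862 against 108350 and 131920 in T47D-PA5, and 83933 against 138090 and 161810 in T47D-PA6, and it fell by 0.79 (SE 0.107, adjusted p = 0.0102). The snoRNA count was 8 without T47D-PA6 replicate 1, 11 to 18 without any 1 of T47D-PA6 replicates 2 and 3, T47D-PA5 replicates 2 and 3 and T47D-VC1 replicate 3, 19 under a scaling to detected probes and 29 without the probes in the area of raised spots. Of 24 host genes of snoRNAs 1 fell and 0 rose. Housekeeping groups gave few calls, with 2 rises and 5 falls among 79 cytoplasmic ribosomal proteins, 2 rises and 3 falls among 77 mitochondrial ribosomal proteins, and 0 rises and 3 falls among 73 subunits of oxidative phosphorylation. Small falls were still common among them. In every line 29 of the 79, 15 of the 77 and 28 of the 73 lay below both later arrays, beside 15.6% of all genes. The medians of these groups were -0.10, -0.05 and -0.09, in the same order.

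**Figure D5:**
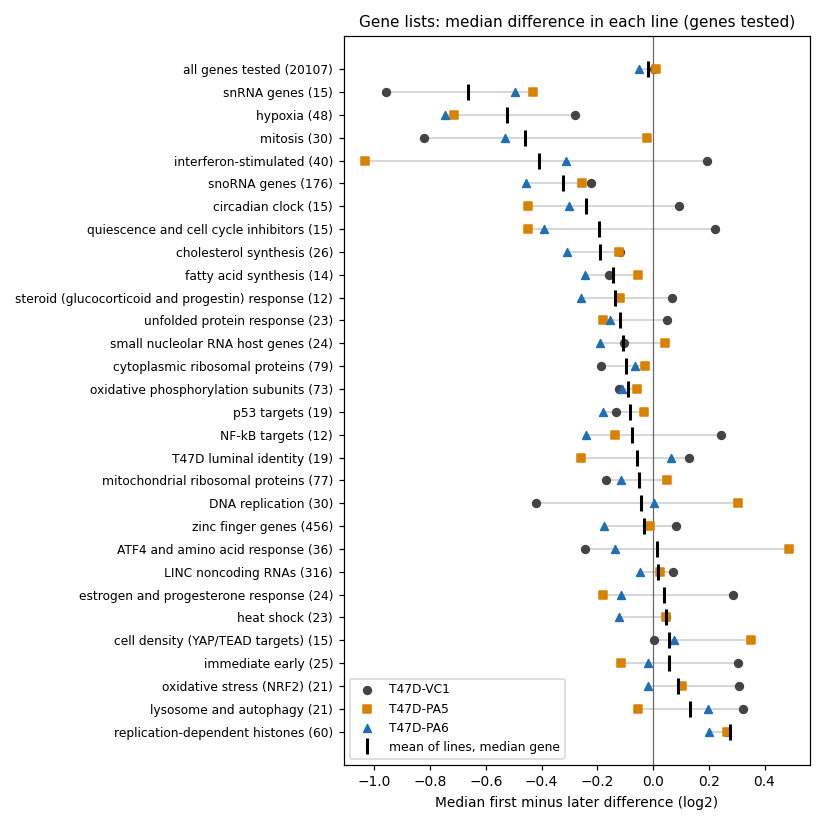
Median first minus later difference (log2) of each gene list, with the number of genes tested in parentheses, by line (symbols) and for the mean of the 3 lines (black bars). The 3 lines lie on the same side of 0 and apart from it for the hypoxia, snRNA and snoRNA genes (lower) and the histone genes (higher), and on both sides for the interferon, ATF4 and DNA replication genes.

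The 6 genes whose first-minus-later difference departed most between lines, among those that passed the F-test, were KLHL31, LIMD1-AS1, POM121L12, NBPF6, FOXJ1 and LINC00448. KLHL31 had a signal of 40.3 against 35.1 and 42.6 in T47D-VC1, 30.1 against 30.7 and 26.4 in T47D-PA5, and 1952 against 24.3 and 34.9 in T47D-PA6 (F-test adjusted p = 0.00532). LIMD1-AS1 was at 42.7 against 49.2 and 39.2 in T47D-VC1, 58.5 against 43.1 and 44.3 in T47D-PA5, and 1696 against 36.2 and 42.3 in T47D-PA6 (F-test adjusted p = 0.00373). In these 2, as in POM121L12, NBPF6 and LINC00448, the first T47D-PA6 array was by far the highest. The spots of these 5 genes on that array lay in the area of raised spots, as did those of 48 of the 85 genes (56.47%) whose difference in T47D-PA6 was more than 2 above that of both other lines. Of all genes tested 15.69% had a spot there. The area is itself defined by raised spots on that array, so the larger share follows in part from the definition and is a description only. Among the 6 genes FOXJ1, the master regulator of motile cilia, was the exception. Its spot lay outside the area with 0 raised spots beside it, and its signal was 753 against 163 and 147 in T47D-VC1, 142 against 209 and 184 in T47D-PA5, and 1489.5 against 73.9 and 76.1 in T47D-PA6. The first array was high in T47D-VC1 and T47D-PA6 and low in T47D-PA5, with differences of 2.28 (T47D-VC1), -0.47 (T47D-PA5) and 4.31 (T47D-PA6) (F-test adjusted p = 0.00373). Taken in pairs, 2902 genes (14.4%) differed between T47D-PA5 and T47D-VC1 in this way, 2072 (10.3%) between T47D-PA6 and T47D-VC1, and 1934 (9.62%) between T47D-PA6 and T47D-PA5. Without the probes in the area of raised spots 3178 genes passed the F-test in place of 3788. With 1 array left out the count was lower throughout. It was 666 and 770 without T47D-PA5 replicate 2 or 3, 1038 and 969 without T47D-PA6 replicate 2 or 3, 1907, 1931 and 2734 without T47D-VC1 replicate 1, 2 or 3, 2032 without T47D-PA5 replicate 1 and 2706 without T47D-PA6 replicate 1.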

How the data were processed

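RNA of T47D-VC1, T47D-PA5 and T47D-PA6 was measured on 1-color Agilent SurePrint G3 v3 arrays, 3 per line, of 62976 spots each. The authors deposited each array's background-subtracted intensity from Agilent Feature Extraction, which the files give as version 10.7.1.1 and the submitters' processing notes as 9.5.1.1. They also deposited a table with an intensity for each probe, quantile-normalized between arrays in R. Its 9 columns had the same median of 9.06, were on the linear scale and correlated at 0.998 to 1.000 with the scanner intensities on the log2 scale. All 9 columns were mapped, and 0 were not. The table was used after log2, and the scanner files gave the alternatives, backgrounds and spot flags.

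Tested probes were those that Feature Extraction marked well above background on all arrays of 1 or more lines. This kept 26172 of 58201 probes, or 20107 genes, each read from its brightest tested probe, and 18250 of these were well above background on all 9 arrays. Names were updated from RefSeq genes, by symbol for 31127 probes, accession for 3343 and synonym for 496, and 23235 kept the name in the files. The comparison of first with later arrays used lmFit and eBayes of limma 3.58.1 under R 4.3.3, with line as a block, with Benjamini-Hochberg adjustment over all genes and a threshold of 0.05. Differences between lines were tested by the interaction of line and array order. Lists are described by counts and medians. A spot was called raised when over 2 (log2) above the median of the other 8 arrays, and the area is where at least 5% of a window of 21 by 21 spots was raised. Removal of the area covered such windows on all 9 arrays, and raised spots with 2 or more raised spots beside them. The script was tested on simulated data.

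Named were the 12 largest rises and falls among called genes that moved the same way in all lines and were well above background on all arrays, up to 4 called genes per list and direction with the lowest adjusted p, and the 6 largest differences between lines by the F-test. The comparison, genes and lists were chosen with earlier results of these data known. Alternatives were other normalizations, filters, probe summaries, models, tests, sets of later arrays and lines, and each array left out, and 3 of them, the scaling to detected probes, the removal of the area and limma on line differences, were added after seeing the data. PTH-AS itself was not analysed here, and some genes are not reported here. The files were read with pandas 2.3.3 and the R package data.table (version 1.17.8).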

Additional observations from a re-analysis of the deposited data

Results flagged for a closer look

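The first-minus-later difference was not the same in the 3 lines for 3788 genes by the F-test of the interaction of line and array order (limma, adjusted p under 0.05). The values that follow are the distance, on the log2 scale, between the largest and the smallest of the 3 line differences, for the genes named in the text that passed this test. Each line's difference rests on 1 first and 2 later arrays, and the spread comes from the later arrays alone.

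Among the hypoxia genes and TXNIP the distance was 4.14 for NDRG1, 3.14 for PPP1R3C, 2.22 for TXNIP, 1.74 for ALDOC, 1.73 for VEGFA, 1.72 for HK2, 1.38 for PDK1, 1.35 for BNIP3, 1.27 for ANGPTL4, 1.27 for LDHA, 1.26 for ADM, 0.87 for DDIT4, 0.86 for KDM3A, 0.79 for PGK1, 0.63 for STC2 and 0.49 for BHLHE40. T47D-VC1 had the least negative or the most positive difference in all but PPP1R3C and BHLHE40.

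Among interferon genes the distance was 2.72 for OASL, 2.48 for ISG15, 1.91 for MX1, 1.61 for IFIT1 and 0.70 for BST2. Among genes of cell division and DNA replication it was 1.31 for AURKB, 1.08 for CCNA2, 0.97 for MCM2, 0.82 for BUB1, 0.74 for PTTG1 and 0.54 for CDK1.

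Of the genes with the largest rises the distance was 2.49 for C11orf97, 2.38 for ROPN1L, 2.34 for CGNL1, 2.24 for CYP1A1, 2.18 for SGK1 and 1.24 for S100A8. Of those with the largest falls it was 1.63 for SPAG4, 1.58 for PPP1R1B, 1.54 for C1orf21 and 0.93 for SKAP2.

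The largest distances belonged to genes that stood out on the first T47D-PA6 array. They were 6.005 for KLHL31, 5.48 for LIMD1-AS1, 4.96 for POM121L12, 4.87 for NBPF6, 4.78 for FOXJ1 and 4.41 for LINC00448, and all of these but FOXJ1 had their spot in the area of raised spots on that array.

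In the remaining lists the distance was 1.52 for MT2A, 1.36 for HSPB8, 1.13 for DUSP6, 0.95 for CTH, 0.92 for CCN1, 0.89 for ACTA2, 0.88 for ELOVL6, 0.87 for TEF, 0.87 for TFF3, 0.80 for SQSTM1, 0.77 for AREG, 0.76 for IER3 and 0.72 for JUN.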

How the results depend on the processing

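None of the 4 list medians set out in the text (hypoxia, interferon, mitosis, histones) and none of the 95 called genes followed turned its direction under any alternative, but the number of calls depended on the processing. No paired analysis was possible because the replicate number, which would pair arrays of different lines, is itself the contrast, and arrays were paired within lines instead. Higher and lower genes numbered 638 and 772 without a filter on dim probes, all of them the same way in every line (also 638 and 772), 161 and 176 with no line block, 3582 and 4428 with the interaction model averaged over lines, 655 and 724 with slide 2 against slide 3 as a further term, and 178 and 188 by the methods' unpaired t-test after Benjamini-Hochberg, or 1941 and 2065 before it. They were 0 and 0 by limma against replicate 2 alone (unadjusted p under 0.05 for 1366 and 1476), against replicate 3 alone (1551 and 1658) and on the 3 line differences (1569 and 1666, lowest adjusted p 0.2075). T47D-PA5 and T47D-PA6 alone gave 599 and 1047, T47D-VC1 and T47D-PA6 alone 909 and 1151, and T47D-VC1 and T47D-PA5 alone 110 and 176. With 1 array left out, higher genes numbered 504 to 1831 and lower genes 523 to 2286, as did those the same way in every line, genes over 2-fold 167 to 336, genes under 0.6-fold 478 to 867, and genes that differed between lines 666 to 2734. The list medians then ranged from -0.76 to -0.47 for hypoxia, from -0.71 to -0.08 for interferon, from -0.61 to -0.30 for mitosis and from 0.24 to 0.32 for histones. Normexp background correction gave 6259 genes that differed between lines and 31 and 118 genes past the fold limits. These limits were passed by 942 and 1426 genes without a filter and by 103 and 287 with a filter on all 9 arrays, and 317 were under 0.6-fold after scaling to detected probes. The histone median was 0.22 under a 75th percentile scaling and 0.32 in T47D-VC1 and T47D-PA5 alone. The cause of these changes was not tested. Of the 95 called genes followed across the alternatives, 0 reversed, 44 lost their call without a filter and 74 with no line block, and none of the calls stood where each line counted once. The number of arrays limits all of this.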

Other observations

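Genes of motile cilia, the beating cell protrusions that FOXJ1 switches on, lay higher at the median on the first arrays of T47D-VC1 and T47D-PA6 and not on that of T47D-PA5. This list was put together after the values of FOXJ1, ROPN1L and C11orf97 had been seen, so its counts are a description. Of 71 genes listed 47 were tested, and 7 of these were called higher and 3 lower, beside 6.57% and 7.48% of all genes. ROPN1L and C11orf97, which led to the list, are among the 7. By line, the median difference was 0.42 (T47D-VC1), -0.20 (T47D-PA5) and 0.68 (T47D-PA6), and 23 of the 47 were above 0 in T47D-VC1 and T47D-PA6 and below 0 in T47D-PA5. The difference between lines passed the F-test for 21 of them, beside 18.8% of all genes tested.

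Broad gene classes lay close to all genes together. Of 456 zinc finger genes 22 rose and 31 fell, with a median of -0.03, and of 316 long intergenic noncoding RNAs 14 rose and 27 fell, with a median of 0.02. Across 20107 genes the first-minus-later differences of 2 lines correlated at 0.21 for T47D-VC1 and T47D-PA5, 0.33 for T47D-VC1 and T47D-PA6 and 0.27 for T47D-PA5 and T47D-PA6. Genes are not independent replicates, and the 3 first arrays share a slide.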
